A study of Mus musculus with 12 samples.

Results

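The libraries described here are the 3 vehicle-treated (Control) replicates of an RNA sequencing series on MC3T3-E1 subclone 14, a clonal line of mouse pre-osteoblasts labelled wild type. They are 3 of the 12 libraries of the series, identified by their treatment label. In every arm the cells were kept for 5 days in α-MEM with 10% fetal bovine serum, 1% penicillin-streptomycin, ascorbic acid phosphate at 50 µg/mL and β-glycerophosphate at 5 mM, at 37 °C and 5% CO2. The other arms, with 3 libraries each, received recombinant mouse RSPO2 at 200 ng/ml, recombinant BMP2 at 100 ng/ml, or both proteins. The Control libraries thus give the starting point against which the study set its treatments, in cells that were already in differentiation medium and that come from 1 clone. Levels are the authors' FPKM (fragments per kilobase of transcript, scaled to the mapped fragments of the library). They are scaled to transcript length, so genes can be compared with each other. Some loci typed as miRNA varied strongly between libraries, so levels of such loci are uncertain. Genes were ranked by their mean over the 3 libraries, and 4 classes of genes were followed: matrix proteins with their processing enzymes, receptors, secreted ligands with their antagonists, and transcription factors.

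Pre-osteoblasts are mesenchymal cells committed to the bone lineage. As they mature they lay down a matrix made mostly of type I collagen, add small acidic and Gla proteins that bind mineral, and raise alkaline phosphatase, which frees phosphate for mineral. Runx2 and Sp7 (osterix) are the transcription factors that this lineage requires, and Wnt, BMP and parathyroid hormone signals act on the cells through surface receptors.

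Summed FPKM lay between 363468 and 371726 in the Control libraries, and 10439 features reached 1 FPKM in all 3 of them. Replicate 1 stood apart. Across the 11047 features with a mean of 1 FPKM or more, log2(FPKM + 1) of replicate 1 correlated across genes at 0.948 with replicate 2 and at 0.951 with replicate 3, and replicates 2 and 3 at 0.978 with each other. Genes are not independent replicates, so these values only describe the libraries. Differences of more than 2-fold on that scale were seen for 6.46% and 5.59% of the features in the pairs with replicate 1, and for 1.91% between replicates 2 and 3. All 31 cell cycle genes of a fixed list were highest in replicate 1, beside 52.3% of all features at a mean of 1 FPKM or more. The summed level of these 31 genes was 1433 FPKM there against 349 and 387 FPKM in replicates 2 and 3. The libraries numbered 1 in the treated arms also had the highest sum of their arm, at 1401 FPKM with RSPO2, 1221 FPKM with BMP2 and 711 FPKM with both, against 241 to 569 FPKM in the treated libraries numbered 2 and 3. BMP2+RSPO2 replicate 1 also differed in composition. Features typed as miRNA held 34.7% of its summed FPKM and ribosomal protein genes 4.05%, against 2.69% to 10.1% and 13.8% to 19.0% in the other 11 libraries. Its sum was 635139 FPKM, with Gm25911 at 130005 FPKM. The labels give the same batch entry for all libraries, so values are given per library below, and with and without replicate 1 where a result rests on it.

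The markers chosen for these cells were high in each Control library. Acta2, smooth muscle actin, stood at 1087, 1241 and 1243 FPKM, a mean of 1190.4 ± 89.2 FPKM (SD, n = 3), which placed it at rank 37 of 39032 features. Col3a1, the chain of type III collagen, measured 739.9, 759 and 775 FPKM, and its coefficient of variation (CV, the SD as a percentage of the mean) was only 2.35%. Ibsp, bone sialoprotein, a mineral-binding protein of bone, read 457, 683 and 793 FPKM. Aspn, asporin, a small leucine-rich proteoglycan of periosteal and ligament cells, stood at 395, 301 and 362 FPKM. Replicate 1 was thus the lowest of the 3 for Acta2, Col3a1 and Ibsp and the highest for Aspn.

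The osteoblast label was then checked against a list of stage genes. Of 25 such genes in the table, 20 had a mean of 1 FPKM or more and 16 reached 10 FPKM. Early and committed genes were high: Sp7 stood at 86.5, 129.8 and 157 FPKM, Ifitm5, a membrane protein of bone-forming cells, at 86.7, 121 and 156 FPKM, and Cdh11, osteoblast cadherin, at 134, 121 and 107 FPKM. Alkaline phosphatase (Alpl) was low for the lineage, at 9.20, 8.64 and 8.30 FPKM. Late genes split. Dmp1, a phosphoprotein of osteocytes, was at 0.16 FPKM in replicate 1 and at 27.1 and 34.8 FPKM in replicates 2 and 3, whereas Sost, the sclerostin gene of osteocytes, was listed at 0 in all 3 libraries and Mepe did not pass 0.02 FPKM. Bglap2, osteocalcin 2, read 68.3, 37.8 and 48.3 FPKM, a value that is uncertain because its near-identical neighbours can share its reads.

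Markers of other cell types were low, with single exceptions. None of the 10 endothelial and none of the 8 epithelial genes reached 1 FPKM, and their summed levels were 0.25 to 0.69 FPKM and 0.49 to 0.66 FPKM per library. In each of 4 further lists 1 gene passed. Cebpa, an adipocyte regulator, had a mean of 3.69 FPKM among 11 adipocyte genes. Tnnc2, fast troponin C, had a mean of 31.1 FPKM among 12 skeletal muscle genes, and Tubb3, a neuronal tubulin, 38.1 FPKM among 8 neural genes. Ctsk, cathepsin K, had a mean of 184 FPKM and was the one gene of 12 on the macrophage and osteoclast list to pass; it also stands on the matrix protease list. Chondrocyte genes were present at low levels, with 4 of 12 at 1 FPKM or more, namely Col11a2 (20.7 FPKM), Sox9 (5.49 FPKM), Col2a1 (4.30 FPKM) and Hapln1 (3.70 FPKM). Their summed level was 23.9 FPKM in replicate 1 and 36.7 and 44.9 FPKM in replicates 2 and 3. In libraries from whole cultures, fewer cells of a type and less RNA per cell cannot be told apart.

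**Figure D1:**
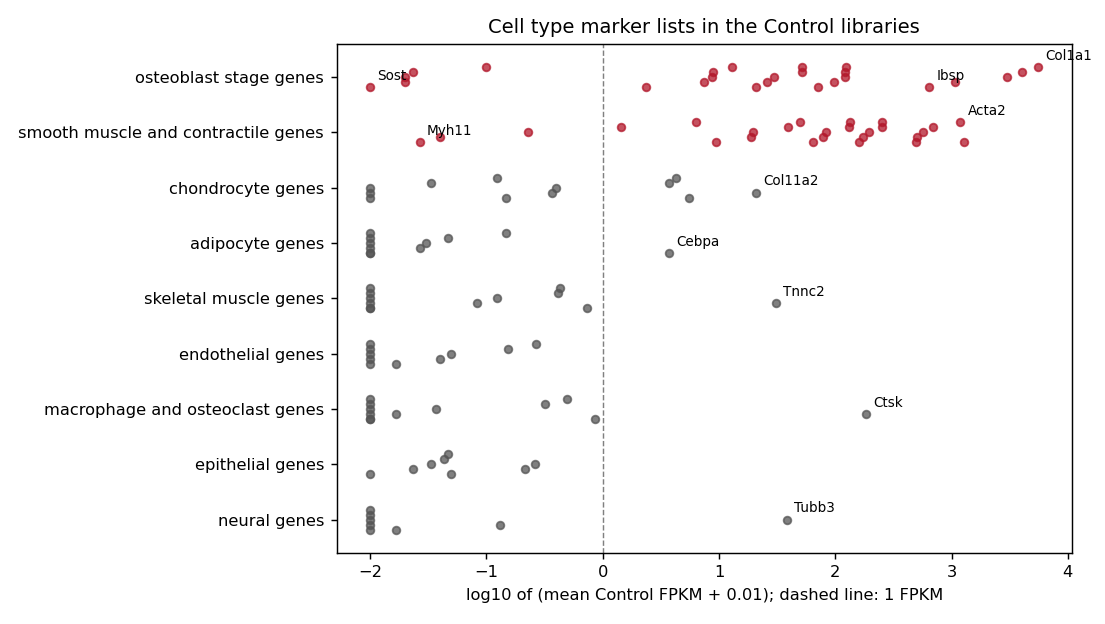
Mean level of each marker gene in the 3 Control libraries, as log10 of FPKM + 0.01, with 1 row of points per list and a dashed line at 1 FPKM. Osteoblast and contractile genes (red) lie mostly to the right of the line, and the endothelial and epithelial lists have no gene beyond it.

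Contractile and cytoskeletal genes formed a second abundant group. Of 26 such genes, 23 reached 1 FPKM and 13 reached 100 FPKM, and together they made up 1.73% ± 0.042 (SD, n = 3) of the summed FPKM. Myl6, a myosin light chain, was the highest at 1140.4, 1298 and 1361 FPKM, followed by Acta2. Cnn2 (calponin 2) had a mean of 493 FPKM, Tagln (transgelin) 253 FPKM and Myl9 (myosin light chain 9) 251 FPKM. Tagln was the least even of these, at 158 FPKM in replicate 1 against 303 and 297 FPKM. Myh11, the myosin heavy chain of mature smooth muscle, did not reach 1 FPKM. The actin genes share long stretches of sequence, so the split of reads between Acta2, Actg2 and Actb is uncertain.

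Many contractile genes are read through the CArG box, the motif bound by serum response factor, and the gene for that factor, Srf, stood at 18.9, 17.7 and 18.1 FPKM. In the 250 bases before each RefSeq start site (build GRCm38.p6), this motif was found in 3 of the 22 windows of the contractile genes at 1 FPKM or more, or 13.6%, with 20 of the 23 genes matched. Over all 32851 windows its share was 1.47%. The windows that hold it, chosen after the matches were seen, are shown because these genes are abundant in the Control libraries. They belong to Myl6 (chr10:128493010-128493259, minus strand), Cnn2 (chr10:79988350-79988599, plus strand) and Myl9 (chr2:156775214-156775463, plus strand), are written 5′ to 3′ and have the motif in capitals:
Myl6: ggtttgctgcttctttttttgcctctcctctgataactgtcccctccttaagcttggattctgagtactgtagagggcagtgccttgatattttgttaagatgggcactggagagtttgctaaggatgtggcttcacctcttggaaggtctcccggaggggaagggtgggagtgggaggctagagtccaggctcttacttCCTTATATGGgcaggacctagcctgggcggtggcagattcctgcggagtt
Cnn2: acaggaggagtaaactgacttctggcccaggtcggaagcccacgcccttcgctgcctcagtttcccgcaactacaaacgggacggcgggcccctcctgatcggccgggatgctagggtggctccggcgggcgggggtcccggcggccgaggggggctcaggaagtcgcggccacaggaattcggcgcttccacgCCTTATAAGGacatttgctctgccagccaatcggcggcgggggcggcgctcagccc
Myl9: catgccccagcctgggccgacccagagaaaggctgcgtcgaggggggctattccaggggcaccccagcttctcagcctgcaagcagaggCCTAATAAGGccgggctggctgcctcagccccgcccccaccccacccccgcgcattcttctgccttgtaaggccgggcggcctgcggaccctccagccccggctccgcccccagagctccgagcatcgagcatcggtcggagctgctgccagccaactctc
The motif begins 50, 56 and 161 bases before the start site in these windows. A match is a description of the letters and not a mapped binding site.

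The most abundant features were a mix of ribosomal, matrix and unnamed ones. The 10 highest features held 12.6% ± 0.318 (SD, n = 3) of the summed FPKM and the 100 highest held 39.6% ± 2.26. Of the 20 highest, 8 were ribosomal protein genes, 4 carried no symbol and 3 were typed as miRNA loci in the table, and the other 5 were Col1a1, Sparc, Col1a2, Lgals1 and Gm10073. Of the miRNA loci, Gm25911 read 6145, 3443 and 2635 FPKM in Control and from 2267 to 130005 FPKM in the treated libraries. The ranks of such loci, and shares that include them, are therefore uncertain. The matrix class made up 7.61% ± 1.104 (SD, n = 3) of the summed FPKM, more than the ligands at 1.38% ± 0.0728, the transcription factors at 1.23% ± 0.0637 and the receptors at 0.978% ± 0.0666. Replicate 1 gave the lowest matrix share, 6.34% against 8.37% and 8.11%, and the mean without it was 8.24%. Lgals1 alone read 2662, 2391 and 2709.5 FPKM, out of summed ligand levels of 5248, 4722 and 5307 FPKM. With classes taken from functional terms, the matrix held 6.98%, ligands 0.858%, transcription factors 1.46% and receptors 0.655%. The order of the smaller classes thus depends on how they are drawn. For comparison, the 74 genes of ribosomal proteins (Rpl and Rps) held 17.7% ± 1.45.

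**Figure D2:**
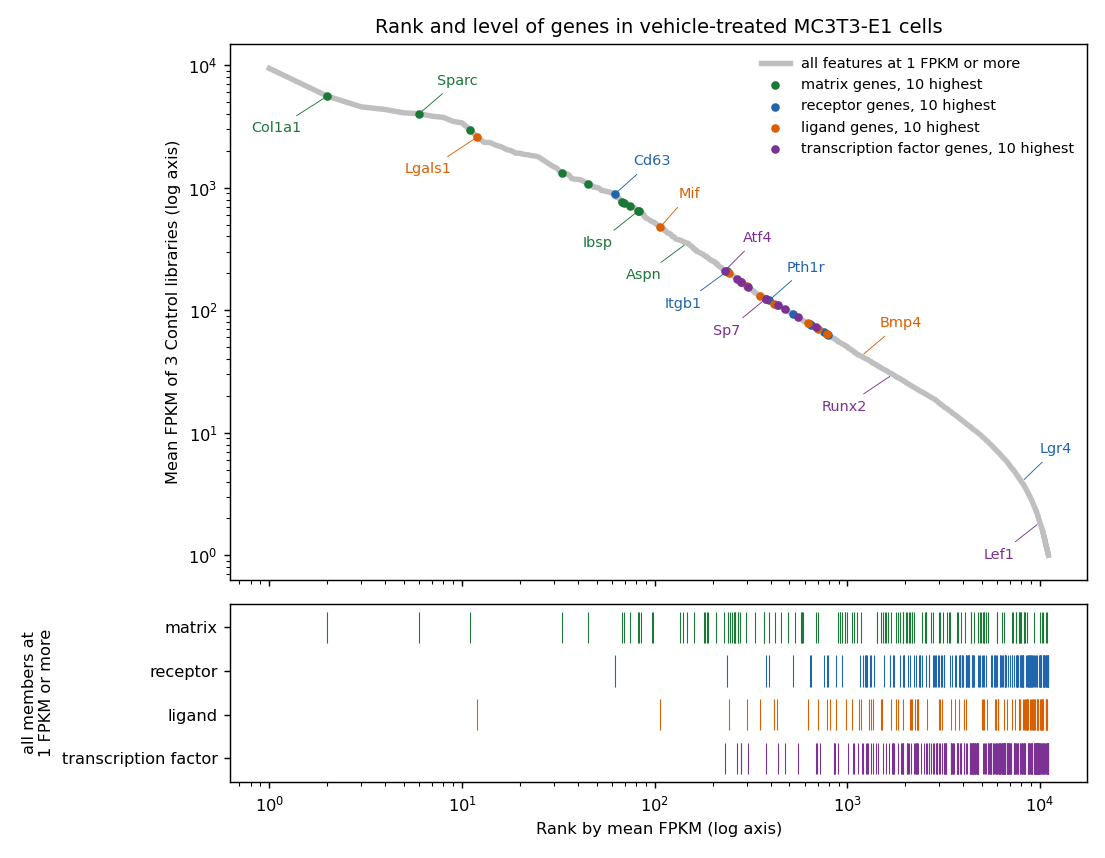
Mean FPKM of the 3 Control libraries against rank, both on log axes, with the 10 highest genes of each class coloured on the curve and, in the lower strip, every class member at 1 FPKM or more. Matrix genes start at rank 2 (Col1a1), ligands at rank 12 (Lgals1), receptors at rank 62 (Cd63) and transcription factors at rank 231 (Atf4).

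Of the 198 features on the matrix list, 129 had a mean of 1 FPKM or more, 39 had 100 FPKM or more and 22 were listed at 0 in all 3 libraries. Type I collagen led. Col1a1, its α1 chain, stood at 4015, 6454 and 6274 FPKM, a mean of 5581 ± 1359 FPKM (SD, n = 3), and Col1a2, its α2 chain, at 2418, 3211 and 3283 FPKM. Both chains were lowest in replicate 1, as were 9 of the 11 fibrillar collagens, beside 31.1% of all features at a mean of 1 FPKM or more. Type V collagen, which nucleates type I fibrils, followed with Col5a2 at 373.7 ± 21.0 FPKM and Col5a1 at 282 ± 48.5 FPKM (SD, n = 3). All 11 fibrillar collagens were above 1 FPKM, down to Col24a1 and Col2a1. Type VI collagen, a microfibrillar collagen around cells, was led by 3 chains, with means of 644 FPKM for Col6a1, 271 FPKM for Col6a2 and 243 FPKM for Col6a3.

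The proteins that bind mineral were high and uneven. Sparc, osteonectin, stood at 3145, 4402 and 4512 FPKM and was the second matrix gene by level. Spp1, osteopontin, measured 201 FPKM in replicate 1 against 1616 and 1402 FPKM, so its mean of 1073 FPKM falls between the libraries and describes none of them. The libraries numbered 1 were also the lowest of their arm for Spp1 with RSPO2 (154 FPKM against 765 and 587), with BMP2 (380 FPKM against 6354 and 5866) and with both (215 FPKM against 6051 and 6196). Mgp, matrix Gla protein, which holds back mineral, read 387, 581 and 616 FPKM. The group as a whole made up 1.15% of the summed FPKM in replicate 1 and 2.02% and 1.99% in the other two libraries.

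The promoters of Ibsp and Col1a2 are shown because these are a marker and a leading gene whose windows hold a CCAAT box, and were chosen after the matches were seen. That motif, searched on both strands (CCAAT or ATTGG), is common and was in 33.9% of all windows and in 32.7% of the 104 windows of matrix genes at 1 FPKM or more. The windows are the 250 bases before the RefSeq start site in GRCm38.p6, at chr5:104299037-104299286 for Ibsp and chr6:4505368-4505617 for Col1a2, both on the plus strand and with the motif in capitals:
Ibsp: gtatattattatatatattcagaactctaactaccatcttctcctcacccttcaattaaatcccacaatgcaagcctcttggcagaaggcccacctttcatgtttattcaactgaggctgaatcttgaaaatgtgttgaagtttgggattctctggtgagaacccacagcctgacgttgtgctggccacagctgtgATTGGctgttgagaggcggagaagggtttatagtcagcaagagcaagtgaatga
Col1a2: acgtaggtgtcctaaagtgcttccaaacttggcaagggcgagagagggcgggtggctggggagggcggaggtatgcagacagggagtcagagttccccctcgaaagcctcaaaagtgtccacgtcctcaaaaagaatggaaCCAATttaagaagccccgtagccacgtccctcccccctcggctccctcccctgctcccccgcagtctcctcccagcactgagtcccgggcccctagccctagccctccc
The match begins 54 bases before the start site in Ibsp and 109 bases before it in Col1a2.

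Small leucine-rich proteoglycans, which coat collagen fibrils and steer their width, had a median CV of 12.9% over 10 genes, with Lum and Dcn standing apart. Fmod, fibromodulin, was even at 646, 733 and 746 FPKM. Lum, lumican, read 420 FPKM in replicate 1 and 76.3 and 81.6 FPKM in replicates 2 and 3, and Dcn, decorin, 425 FPKM against 177 and 200.2 FPKM. Both were therefore 2-fold or more higher in replicate 1, in which Spp1 and Dmp1 were lowest. The treated libraries numbered 1 were also the highest of their arm for Lum and Dcn and the lowest for Dmp1. Lum read 459 FPKM there against 136 and 123 with RSPO2, 143 against 42.7 and 38.5 with BMP2, and 64.5 against 19.1 and 15.4 with both. Omd, osteomodulin, Ogn, osteoglycin, and Prelp lay between 126.5 and 205 FPKM on average, each with a CV under that of Lum.

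Cell-binding and matricellular proteins were led by Fn1, fibronectin, at 650.0, 902 and 715 FPKM. Postn, periostin, was among the most even genes of this size, at 175, 181 and 183 FPKM, and Tnc, tenascin C, measured 122, 185 and 178 FPKM. The 13 expressed genes of elastic fibres and microfibrils were modest, with none above 100 FPKM and Emilin1 the highest at 53.6 ± 4.17 FPKM (SD, n = 3). Cell-surface heparan sulfate carriers were higher, with mean levels of 215 FPKM for Gpc1 (glypican 1), 128 FPKM for Sdc2 (syndecan 2) and 120.3 FPKM for Sdc3 (syndecan 3).

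Genes that fold, crosslink and cut the matrix were strongly present. Serpinh1, the collagen chaperone HSP47, stood at 1093, 1473 and 1416 FPKM. P4hb, a subunit of prolyl 4-hydroxylase, had a mean of 525 ± 43.0 FPKM, Ppib, cyclophilin B, 363.5 ± 9.09 FPKM, and Lox, lysyl oxidase, 188 ± 34.6 FPKM (SD, n = 3 for each). Among proteases, Mmp2, gelatinase A, read 564, 691 and 651 FPKM and Mmp14, its membrane-bound activator, 161, 196 and 175 FPKM. Timp2, an inhibitor of both, stood at 317 ± 14.3 FPKM (SD, n = 3). Mmp13, the collagenase of late osteoblasts, was near the floor at 0.96, 2.43 and 2.26 FPKM. The collagen-modifying enzymes had a median CV of 8.11% over 19 genes, compared with 20.5% over the 11 fibrillar collagens and 28.3% over the 6 expressed bone matrix proteins. Between replicates 2 and 3 alone these medians were 7.08%, 6.58% and 10.3%, so the higher spread of the fibrillar collagens rests on replicate 1.

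**Figure D3:**
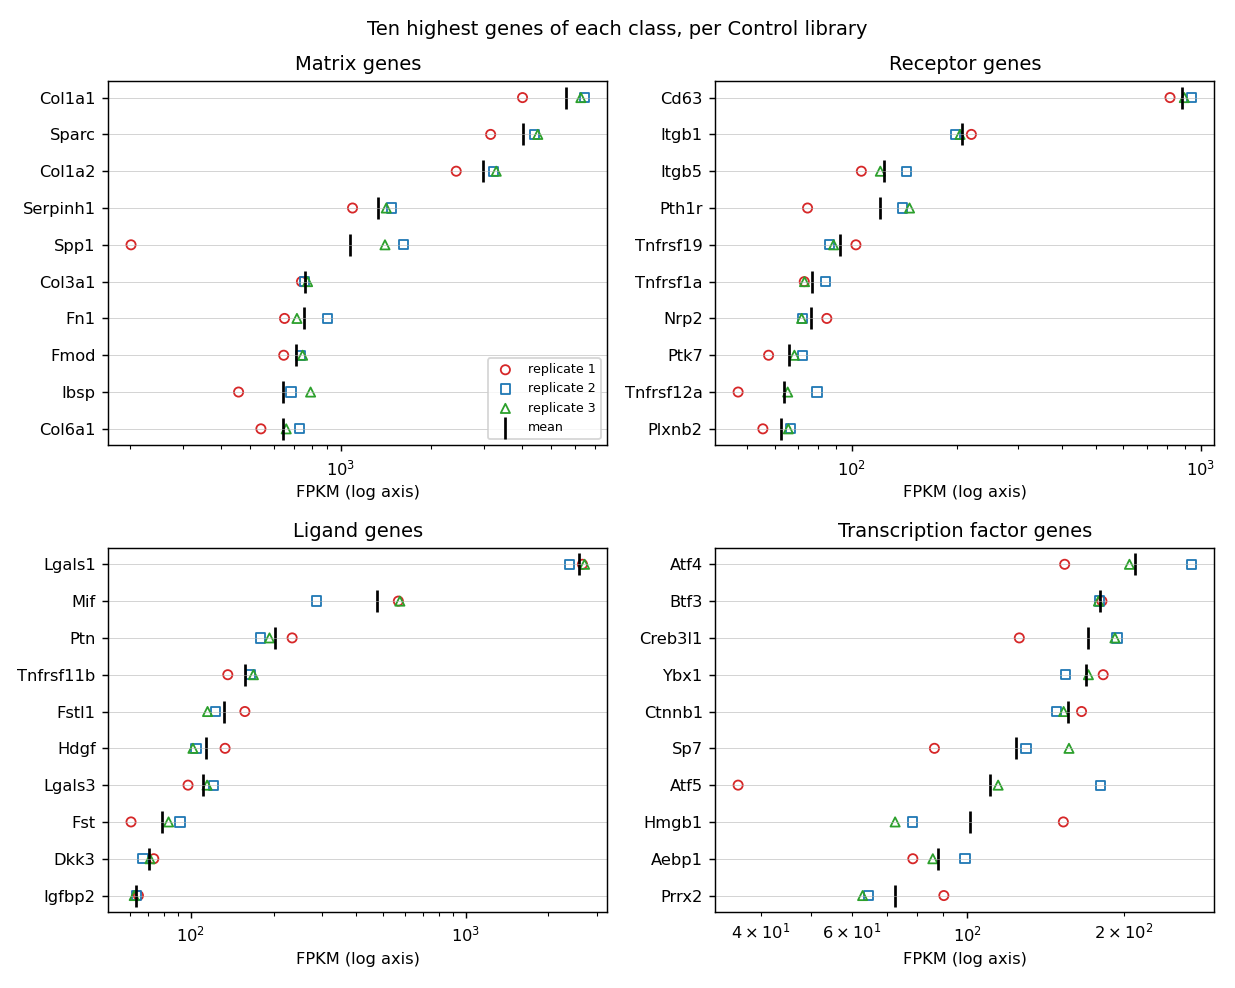
FPKM of the 10 highest genes of each class in every Control library on a log axis, with replicate 1 as red circles, replicate 2 as blue squares, replicate 3 as green triangles and the mean as a black bar. Replicate 1 is far to the left for Spp1 and Atf5, and the points of neighbouring genes overlap in most rows.

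Receptors were expressed far below the matrix. Of 267 features on the receptor list, 162 had a mean of 1 FPKM or more, 77 had 10 FPKM or more and 43 were listed at 0. Cd63, a tetraspanin of endosomes and the cell surface counted here with the transport receptors, was the highest at 816, 941 and 897 FPKM. Itgb1, the integrin β1 chain that pairs into most collagen and fibronectin receptors, followed at 220.0, 198 and 204 FPKM, and Itgb5 at 106, 143 and 121 FPKM. The α chains of collagen receptors were lower, with Itga10 at 26.4 ± 8.07 FPKM and Itga11 at 25.2 ± 2.53 FPKM (SD, n = 3). Ddr2, a collagen-binding kinase, had the highest CV of the receptors at 10 FPKM or more, reading 45.5 FPKM in replicate 2 alone against 11.2 and 11.9 FPKM.

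Hormone and growth factor receptors were led by Pth1r, the parathyroid hormone receptor, at 74.6, 139.5 and 146 FPKM, so its lowest value was again in replicate 1. Tnfrsf19 (TROY) stood at 103, 86.4 and 88.6 FPKM and Tnfrsf1a, the tumour necrosis factor receptor, at 73.0, 83.9 and 73.1 FPKM. Among receptor tyrosine kinases, Ptk7, a Wnt planar polarity co-receptor, had a mean of 66.1 FPKM, Fgfr1 53.1 FPKM, Fgfr2 39.7 FPKM and Pdgfrb 36.6 FPKM, whereas Pdgfra stood at 6.06 FPKM. The median CV of the 24 kinases at 1 FPKM or more was 10.5%. Of the nuclear receptors, counted in this class, Rarg (retinoic acid receptor γ) was the highest at 41.4 ± 6.11 FPKM, and Vdr, the vitamin D receptor, read 5.07 ± 1.07 FPKM (SD, n = 3).

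The receptors for the proteins added in the other arms were present at low to moderate levels. For BMP2, Bmpr1a, a type I receptor, stood at 22.9, 17.9 and 18.8 FPKM, Acvr1 at 12.8, 13.8 and 12.7 FPKM, and Bmpr2, the type II receptor, at 5.72, 6.22 and 6.23 FPKM. Bmpr1b was listed at 0 in all 3 libraries. For RSPO2, Lgr4 was the one LGR receptor with a level, at 3.32, 4.24 and 4.35 FPKM, while Lgr5 was listed at 0 and Lgr6 did not pass 0.01 FPKM. The ubiquitin ligases that R-spondins hold back from Wnt receptors were both measured, Rnf43 at 2.89, 2.78 and 2.93 FPKM and Znrf3 at 2.17, 1.63 and 1.68 FPKM. Frizzled and LRP genes ranged up to 20.6 ± 0.876 FPKM for Fzd7 (SD, n = 3), with Lrp6 at 10.6 ± 0.475 FPKM and Lrp5 at 5.64 ± 0.685 FPKM. Together the Wnt and R-spondin receptors made up between 0.0265% and 0.0283% of the summed FPKM of a library.

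Of 232 features on the ligand list, 89 had a mean of 1 FPKM or more and 70 were listed at 0 in all 3 libraries. Among all 39032 features these counts were 11047 and 20055. Lgals1, galectin 1, a secreted lectin, was the highest at 2662, 2391 and 2709.5 FPKM. Mif, a cytokine, read 569 and 576 FPKM in replicates 1 and 3 and 287 FPKM in replicate 2. Ptn, pleiotrophin, a heparin-binding growth factor, stood at 234, 179 and 193 FPKM. Tnfrsf11b, osteoprotegerin, the soluble decoy for the osteoclast signal RANKL, measured 136, 165 and 169 FPKM, whereas Tnfsf11, which encodes RANKL, was listed at 0 and Csf1, the macrophage growth factor, read 14.0, 28.7 and 24.6 FPKM.

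Antagonists were high. Fstl1 (follistatin-like 1) stood at 157, 123 and 115 FPKM, Fst (follistatin), which binds activin, at 60.6, 91.3 and 83.0 FPKM, and the Wnt antagonists Dkk3 and Sfrp2 at 70.5 ± 3.19 FPKM and 61.2 ± 5.04 FPKM (SD, n = 3). Wif1, another Wnt inhibitor, was uneven at 13.6, 38.1 and 49.2 FPKM. In all, secreted Wnt and BMP antagonists made up 0.125% ± 0.00342 (SD, n = 3) of the summed FPKM, the Wnt and R-spondin ligands 0.0203% ± 0.00346 and the BMP and GDF ligands 0.0178% ± 0.00288, with no overlap between the antagonists and either group in any library.

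Among the ligands themselves, Bmp4 was the highest BMP at 31.0, 46.3 and 49.3 FPKM, and Bmp2 was listed at 0. Wnt10a (19.3, 30.8 and 30.1 FPKM), Wnt10b (16.3, 15.4 and 18.6 FPKM) and Wnt6 (9.41, 16.01 and 16.4 FPKM) were the Wnt genes above 10 FPKM. Rspo2 itself had a low endogenous level of 1.71, 2.47 and 2.08 FPKM, and Rspo1 and Rspo3 stayed under 0.2 FPKM. Tgfb3 stood at 28.7 ± 3.48 FPKM and Tgfb1 at 24.6 ± 7.01 FPKM (SD, n = 3). The IGF axis was led by binding proteins. Igfbp2 was at 64.5, 63.4 and 62.2 FPKM, the lowest CV of the ligands at 10 FPKM or more (1.77%). The hormone genes Igf1 and Igf2 were lower, with means of 3.32 and 2.92 FPKM.

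One letter pattern was more frequent before ligand genes under 1 FPKM than before the others, and was picked after the matches were seen. The TATA box, searched as TATAAA on the sense strand starting 45 to 20 bases before the RefSeq start site, was in 15 of 122 windows (12.3%) of ligand genes under 1 FPKM and in 3 of 80 windows (3.75%) of ligand genes at 1 FPKM or more. Its share was 2.14% over all windows and 0.884% over protein-coding genes at 1 FPKM or more. Under 1 FPKM, it was in 2 of 105 windows of receptor genes, 2 of 95 of transcription factor genes and 2 of 57 of matrix genes. Of the 143 ligand genes under 1 FPKM, 99 were matched to a window. Some genes have several windows, so these shares describe windows and carry no test.

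Transcription factors were mostly expressed. Of 374 features, 253 had a mean of 1 FPKM or more, 119 had 10 FPKM or more and 8 had 100 FPKM or more. Atf4, a factor of amino acid supply and the stress response that osteoblasts need for collagen synthesis, was the highest by mean, at 154, 270.5 and 205 FPKM. Btf3, a general nascent-chain factor, was the most even, at 182, 179.8 and 179 FPKM. Creb3l1 (OASIS), a membrane-bound factor that acts on type I collagen genes, read 126, 194 and 192.5 FPKM. Ybx1, an RNA- and DNA-binding protein, and Ctnnb1, β-catenin, the Wnt co-activator, followed with means of 169 and 156 FPKM.

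The lineage factors took different places. Sp7 ranked sixth in the class with 124 ± 35.6 FPKM, while Runx2, upstream of it, stood at 24.5, 32.7 and 32.5 FPKM. Mesenchymal homeobox factors were also high, with Prrx2 at 72.5 ± 15.3 FPKM, Prrx1 at 40.2 ± 3.58 FPKM and Dlx5 at 25.5 ± 6.07 FPKM (SD, n = 3). Twist1, which restrains Runx2, read 39.1, 25.8 and 24.7 FPKM. Of the factors at the end of the Wnt pathway, Tcf7 led at 58.3, 77.4 and 78.8 FPKM against 1.85 ± 0.0643 FPKM (SD, n = 3) for Lef1, and their feedback target Axin2 read 5.32, 3.72 and 3.47 FPKM. The BMP targets Id1 and Id3 stood at 1.19 ± 0.457 FPKM and 39.4 ± 6.31 FPKM.

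The order within each class was loose. Between each of the 10 highest genes and the next one down, the ranges over the 3 libraries overlapped in 9 of 10 pairs of matrix genes, 7 of 10 of receptors, 5 of 10 of ligands and 10 of 10 of transcription factors. The pairs whose ranges did not overlap had Col1a2, Cd63, Itgb1, Tnfrsf19, Lgals1, Mif, Ptn, Lgals3 and Dkk3 as the higher gene. Col1a1 was nevertheless above Sparc, and Sparc above Col1a2, in each of the 3 libraries. Among transcription factors, Ybx1 over Ctnnb1 was the only neighbouring pair in the same order in all 3 libraries.

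Spread over the libraries was larger for ligands than for receptors. The median CV was 13.4% over all 11047 features at 1 FPKM or more, 12.3% for receptors, 14.7% for matrix genes, 15.4% for transcription factors and 18.1% for ligands. Without replicate 1 these medians fell to 5.997%, 6.90%, 6.58%, 5.55% and 6.46%, so the order of the classes rests on that library. Replicate 1 was the library farthest from the other two for 59.1% of the features, against 21.3% for replicate 2 and 19.6% for replicate 3.

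The most and least even genes show what differed. At 10 FPKM or more, the matrix genes with the highest CV were Lum (102%), Dmp1 (87.9%) and Spp1 (71.1%), and those with the lowest were Tgfbi (0.839%), Col8a2 (1.47%) and Sdc1 (1.61%). For transcription factors, Foxm1, a cell cycle factor, was high in replicate 1 at 19.95 FPKM against 6.52 and 6.62 FPKM. Nfe2l1 and Atf5 were low there, at 11.5 against 65.7 and 47.0 FPKM and at 36.2 against 180.3 and 115 FPKM. The low library of Nfe2l1 varied between the arms. It was replicate 1 with BMP2 (11.2 FPKM), replicate 2 with RSPO2 (14.0 FPKM) and replicate 3 with both proteins (18.7 FPKM). Among the lists of the 4 classes, the bone matrix proteins had the lowest median difference in log2(FPKM + 1) between replicate 1 and the mean of replicates 2 and 3 (-0.66), followed by the AP-1 and early response factors (-0.52) and the fibrillar collagens (-0.45). The cell cycle list stood at 1.94, the 4 expressed chondrocyte genes at -0.73, and the median over all features at 1 FPKM or more was 0.09. The part of the cell cycle genes' level in these differences was not tested.

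**Figure D4:**
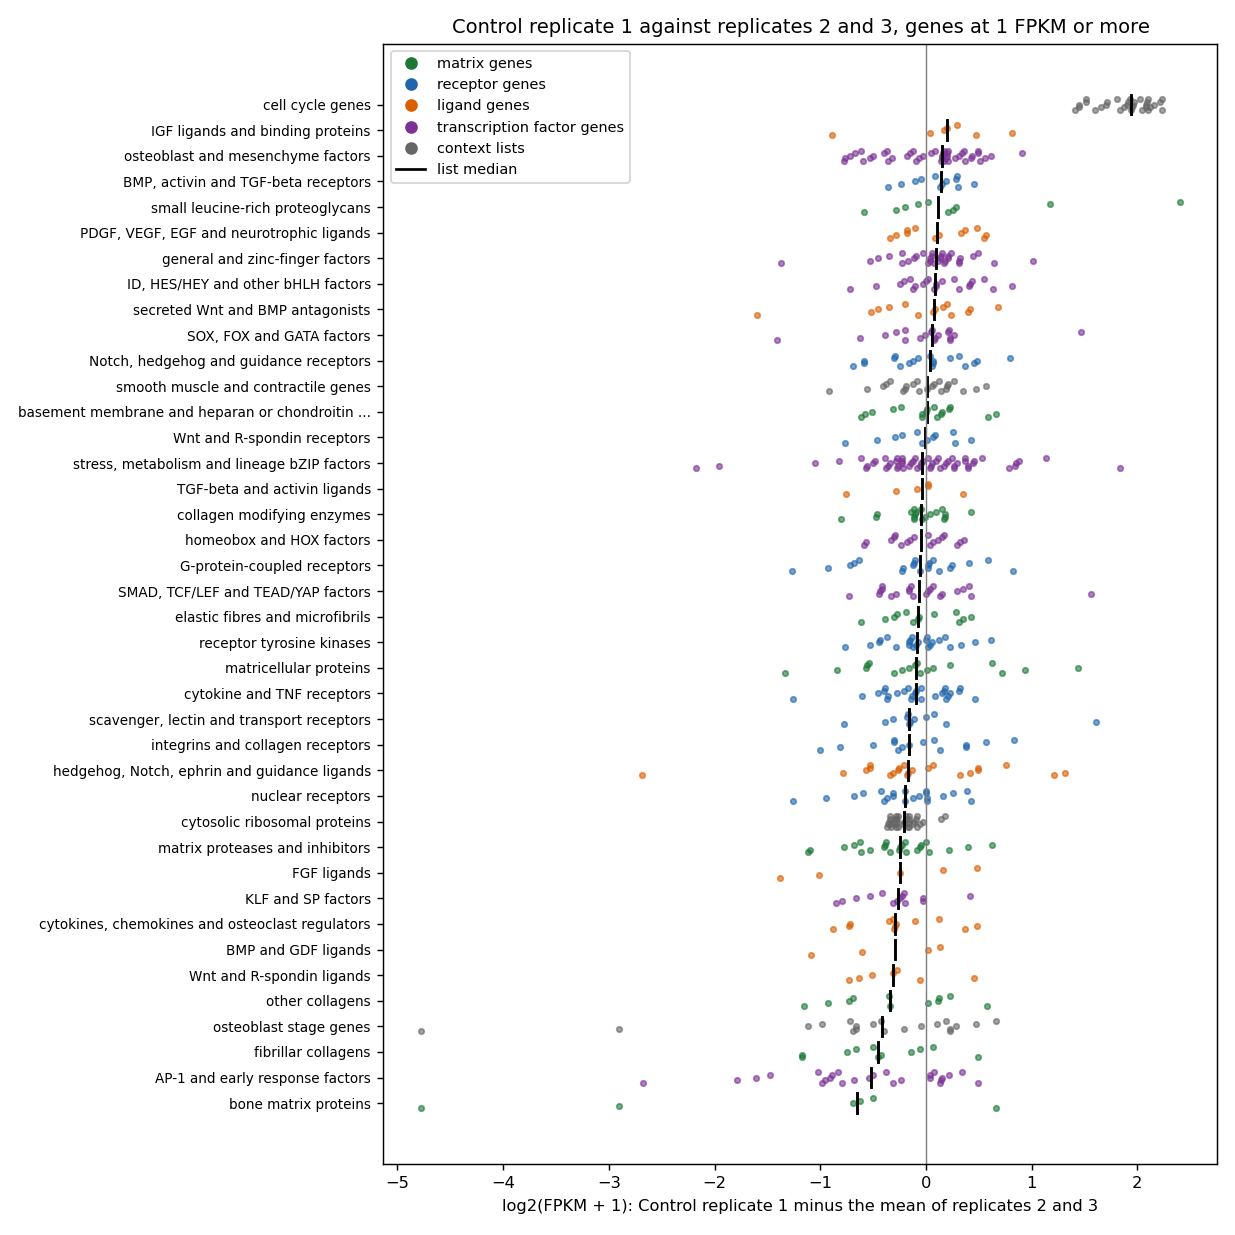
Difference in log2(FPKM + 1) between Control replicate 1 and the mean of replicates 2 and 3, 1 point per gene at a mean of 1 FPKM or more, 1 row per list, with a black bar at the list's median. The cell cycle genes lie apart at the top with a median of 1.94, and the bone matrix proteins are at the bottom with -0.66.

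To place the baseline in the study, each treated arm was compared with Control in 1 limma model over the 12 libraries, on log2(FPKM + 1), for 11548 genes at 1 FPKM or more in at least 3 libraries. Calls are at an adjusted p under 0.05 (Benjamini-Hochberg within a comparison). The 3 comparisons share the Control libraries, so their values are given side by side and are not independent. With RSPO2, 9 genes were called, 0.0779% of those tested, of which 7 were higher (0.0606%) and 2 lower (0.0173%). With BMP2 the count was 175 (1.52%), with 59 higher (0.511%) and 116 lower (1.00%), and with both proteins it was 2656 (23.0%), with 421 higher (3.65%) and 2235 lower (19.4%). In the comparison with both proteins the median of all genes was -0.26, and quantile or median-of-ratios scaling, which brought it to -0.02 and -0.03, gave 1626 calls (800 higher and 826 lower) and 1697 calls (848 higher and 849 lower). With replicates 2 and 3 alone the counts were 195, 963 and 3994. Without BMP2+RSPO2 replicate 1, whose composition stood apart, the comparison with both proteins gave 610 higher and 2148 lower calls and a median of all genes of -0.22. The part of that library's composition in this comparison was not tested. The BMP2 count was 65, 87 and 93 without Control replicate 1, 2 or 3, 75 and 66 without BMP2 replicate 2 or 3, and 403 without BMP2+RSPO2 replicate 1. The count with both proteins was 1595 and 1712 without Control replicate 1 or 3. The RSPO2 count was between 0 and 4 without any 1 library other than BMP2 replicate 1 (8 calls) and BMP2+RSPO2 replicate 1 (21 calls).

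The 4 markers differed between the arms, and treated values can be set against the Control values above. They were chosen to name the Control cells, and the comparisons use the same Control libraries. The limma p-values of these 4 genes carry that choice and are no separate evidence. Acta2 read 1005, 1327 and 1209.8 FPKM with RSPO2, 590.1, 585 and 623 FPKM with BMP2, and 275, 241 and 244 FPKM with both. The RSPO2 range overlapped Control and the other two lay wholly below it. In limma the difference was -0.99 ± 0.13 (log2 ± SE, adjusted p = 0.00415) with BMP2 and -2.23 ± 0.13 (adjusted p = 9.5e-06) with both. Aspn fell further. It read 64.3, 66.1 and 73.8 FPKM with BMP2 (-2.35 ± 0.36, adjusted p = 0.00933, and 0.0516 without Control replicate 1) and 26.3, 9.32 and 7.23 FPKM with both (-4.73 ± 0.36, adjusted p = 3.51e-05).

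Col3a1 measured 743, 732 and 781 FPKM with RSPO2, overlapping Control, then 255, 423 and 424 FPKM with BMP2 and 136, 106 and 108 FPKM with both. Its limma difference was -1.08 ± 0.19 (adjusted p = 0.018) with BMP2 and -2.70 ± 0.19 (adjusted p = 2.85e-05) with both. The first call was lost in 6 of 20 other settings, including the removal of any 1 Control library (adjusted p of 0.071, 0.074 and 0.0732). Ibsp moved the other way. It stood at 2156, 1605 and 1724 FPKM with BMP2 (1.53 ± 0.26, adjusted p = 0.0173) and at 1972, 2885 and 2973 FPKM with both (2.03 ± 0.26, adjusted p = 0.000741), all above Control. The BMP2 call for Ibsp was also lost in 6 of 20 settings, with adjusted p up to 0.0688. With RSPO2, Ibsp read 232, 305 and 387 FPKM, all below Control, but was not called in limma (adjusted p = 0.407, and 0.0165 with replicates 2 and 3 alone).

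**Figure D5:**
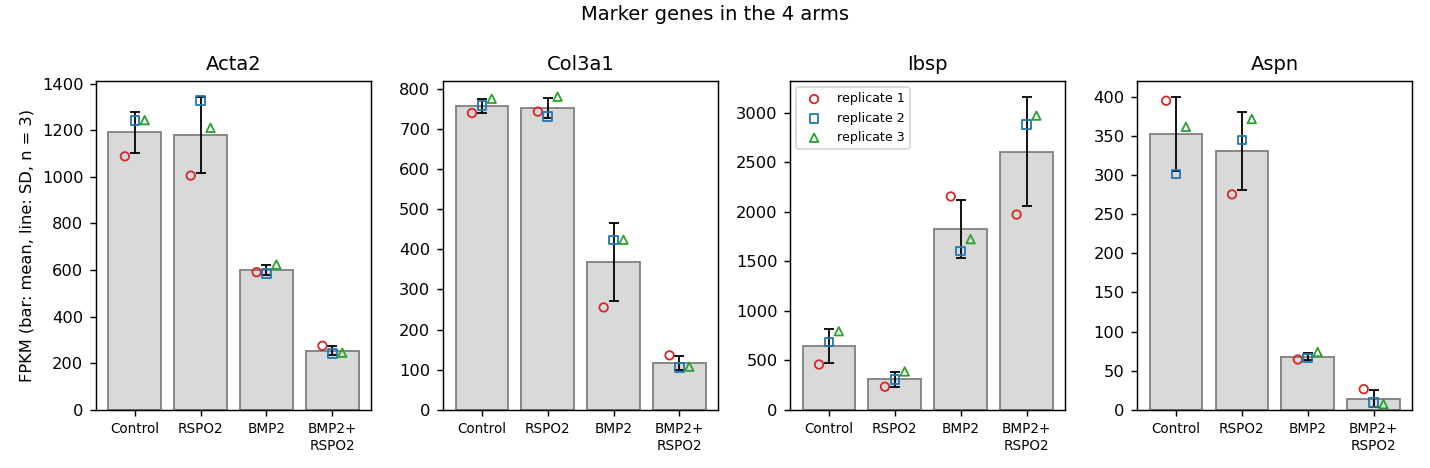
FPKM of Acta2, Col3a1, Ibsp and Aspn in the 4 arms, with bars for the mean, lines for the SD (n = 3) and 1 point per library. The Control and RSPO2 points overlap for Acta2, Col3a1 and Aspn, and the points with both proteins are lowest for these genes and have the highest mean for Ibsp.

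By class, the genes tested were called at the rates below. They are list members at 1 FPKM or more in at least 3 libraries over all arms, so some entered through treated libraries. At a Control mean of 1 FPKM or more there were 129 matrix genes, 162 receptors, 89 ligands and 253 transcription factors. The lists were chosen with earlier results of these data known, so no enrichment is read from the rates. With BMP2, 17 of 132 matrix genes (12.9%), 13 of 168 receptors (7.74%), 17 of 100 ligands (17.0%) and 6 of 262 transcription factors (2.29%) were called, beside 1.52% of all genes. Most were lower: 13 matrix genes, 11 receptors, 15 ligands and 4 transcription factors. Over all genes 116 of the 175 calls were lower as well, so this direction is not particular to the classes. Class medians were near that of all genes (-0.06), between -0.09 and -0.04. With both proteins 64 matrix genes, 65 receptors, 42 ligands and 68 transcription factors were called (48.5%, 38.7%, 42.0% and 25.95%, beside 23.0% of all genes). The split of the transcription factors turned with scaling, from 29 higher and 39 lower to 37 and 11 after quantile normalization, as did that of the receptors, from 18 and 47 to 29 and 24. Matrix genes and ligands stayed mostly lower under both scalings.

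With BMP2, the fibrillins had the smallest p-values of the matrix genes. Fbn1, fibrillin 1, fell from 10.5, 9.18 and 7.66 FPKM to 0.94, 1.12 and 1.12 FPKM with BMP2 (-2.29 ± 0.14 in limma, adjusted p = 3.95e-05), and Fbn2 from 25.7, 23.7 and 24.8 to 3.34, 5.11 and 4.88 FPKM (-2.26 ± 0.23, adjusted p = 0.00113). No Control and BMP2 library overlapped for either gene. The called receptors included Gfra2, a receptor for neurturin, at 23.2, 13.3 and 12.6 FPKM in Control and 1.22, 0.64 and 0.59 FPKM with BMP2 (-3.22 ± 0.21, adjusted p = 4.41e-05). Lifr, the receptor of leukaemia inhibitory factor, rose from 12.7, 12.8 and 13.6 FPKM to 26.4, 28.2 and 29.2 FPKM (1.04 ± 0.12, adjusted p = 0.00196). Among transcription factors Jun, a member of AP-1, fell and Smad6, a BMP feedback inhibitor, rose (-0.91 ± 0.12, adjusted p = 0.00428, and 1.096 ± 0.16, adjusted p = 0.0086).

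The 10 highest Control genes in each class were picked by the Control values that the comparisons also use. The counts and directions of their calls carry that selection. Few of these genes were called with a single protein. With BMP2, beside 1.52% of all genes, these were Col3a1 (lower) and Ibsp (higher) for the matrix, Ptn, Fstl1 and Igfbp2 (all lower) for the ligands, and none for the receptors and transcription factors. With both proteins, beside 23.0% of all genes, 7 matrix genes, 7 ligands, 3 transcription factors and 1 receptor of the 10 in each class were called. The last 2 counts are near or under the share of all genes. In that comparison Col1a1 (1.12 ± 0.24, adjusted p = 0.00961), Creb3l1 (1.44 ± 0.20, adjusted p = 0.00114) and Sp7 (1.06 ± 0.28, adjusted p = 0.0222) were higher. The call of Sp7 was lost in 4 of 20 settings, with adjusted p up to 0.0847. These were without Control replicate 1, without BMP2+RSPO2 replicate 2 or 3, and the fit with the 2 groups compared only. The call of Col1a1 was lost in 3 of 20 settings, among them quantile normalization (0.41, adjusted p = 0.612). Spp1 was not called in limma over all libraries, with differences of -0.91 with RSPO2, 1.65 with BMP2 and 1.38 with both and an SE of 1.49 in each. With replicates 2 and 3 alone it was lower with RSPO2 (-1.17 ± 0.14, adjusted p = 0.0169) and higher with BMP2 (2.02 ± 0.14, adjusted p = 0.000973) and with both (2.02 ± 0.14, adjusted p = 0.000249). Spp1 is itself a gene in which replicate 1 stood apart in every arm, so leaving that replicate out narrows its spread. These p-values therefore give no separate evidence of a change in Spp1.

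Igfbp2, the evenest ligand of the baseline, was called in each comparison. It was picked by its spread in the same Control libraries, so its calls carry that selection. From 64.5, 63.4 and 62.2 FPKM in Control it stood at 120, 145 and 149 FPKM with RSPO2 (1.104 ± 0.15, adjusted p = 0.0383), at 9.16, 14.7 and 13.0 FPKM with BMP2 (-2.30 ± 0.15, adjusted p = 4.41e-05) and at 5.97, 5.56 and 6.21 FPKM with both (-3.22 ± 0.15, adjusted p = 2.38e-06) in limma. No arm overlapped Control. The RSPO2 calls of class members were Igfbp2, Ets2 (an ETS family factor) and Neurog2 (a neurogenic factor), all higher, and Ptgfr, a prostaglandin F receptor, which was lower. Each of these calls was lost in 9 to 16 of the other settings tried, with adjusted p up to 0.325. Neurog2 read 0.61, 0.09 and 0.21 FPKM in Control and 2.41, 2.83 and 4.04 FPKM with RSPO2. No Control library reached 1 FPKM, so Neurog2 entered the test only through treated libraries. Its call as higher carries that selection.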

How the data were processed

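RNA from 12 cultures of MC3T3-E1 subclone 14 cells was sequenced as stranded poly(A) libraries, per the labels' protocols, with 3 biological replicates in each of 4 arms. The authors deposited 1 table of FPKM per library, and the submitters' processing notes name cutadapt 1.10, HISAT2 2.0, StringTie 1.3.4, FastQC 0.10.1 and edgeR (no version), with builds GRCm38 and mm10; gene identifiers in the table are of the C57BL/6NJ strain annotation. Values carry 2 decimals and no read counts are used here, so depth, and with it the counting error of low genes, is unknown. The p-value and q-value columns that the authors deposited name no groups and were not used.

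Libraries were assigned by treatment label. Genes were ranked by mean Control FPKM, with 1 FPKM as the level for expressed. The comparisons used log2(FPKM + 1) in limma 3.58.1 (R 4.3.3) with a trended prior, in 1 model over all arms, for genes at 1 FPKM or more in at least 3 libraries, with Benjamini-Hochberg adjustment over all 11548 genes; all adjusted p-values in the text are from it. A fold on this scale understates the change of low genes. The fit was run on simulated data with independent noise of capped size and no shift between replicates. That setting lacks the replicate differences seen here, so it cannot vouch for the calls. Tables were made with Python 3.11.15, numpy 2.4.6 and pandas 2.3.3, and figures with matplotlib 3.10.9. Alternatives were other pseudocounts, filters and scalings, a replicate block, a fit with the groups compared only, replicates 2 and 3 alone, and leaving out each library.

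The gene lists, the classes and the Control group as a subject were chosen with earlier results of these data known. Named genes are the 4 markers, the 20 highest with a symbol, the 10 highest of each class, the 3 highest and 3 lowest by CV at 10 FPKM or more, the 2 highest of each list, up to 3 called genes per class and comparison, and a panel of BMP, R-spondin and osteoblast genes. Genes named beyond this rule, as examples of a role, were chosen after their values were seen. Promoter windows are from RefSeq, GRCm38.p6.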

Additional observations from a re-analysis of the deposited data

How the results depend on the processing

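The counts of called genes depended on the settings. For RSPO2, 9 calls in limma became 0 with a pseudocount of 0.1 (373 genes at an unadjusted p under 0.05), 0 with a filter of 5 FPKM (289 genes), 0 in a fit of the 2 groups compared only (553 genes), 5 with quantile normalization and 6 with median-of-ratios scaling or with no filter, 195 with replicates 2 and 3 alone, and 0 to 21 leaving out 1 library. For BMP2, 175 calls became 963 with replicates 2 and 3 alone and 65 to 403 leaving out 1 library. For both proteins, 2656 calls became 1626 with quantile normalization, 1697 with median-of-ratios scaling, 3994 with replicates 2 and 3 alone, 1172 in a fit of the 2 groups only and 1595 to 2758 leaving out 1 library. Of 898 gene values under alternatives, 807 kept their direction and side of the threshold, 77 lost the call, 4 gained it and 10 changed sign. The changes of sign were all with RSPO2, uncalled: Acta2 at 0.0701 with quantile normalization and 0.0287 with replicates 2 and 3 alone, and Aspn at 0.117 with replicates 2 and 3 alone. Col3a1 stood at 0.0523 with quantile normalization. Leaving out 1 library, Acta2 ranged from -0.108 to 0.0926, Aspn from -0.204 to 0.0305 and Col3a1 from -0.0394 to 0.0073.

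Libraries with the same replicate number are not known to be paired. Their deviations from the arm means correlated at over 0.1 in 16 of 18 pairs (-0.12 to 0.63), and a replicate block gave 26, 329 and 3897 calls. Spp1 stayed uncalled under the block, with an SE of 0.48 and adjusted p of 0.136 with BMP2 and 0.0565 with both.

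Without ribosomal, RNA polymerase III and mitochondrial genes, the 10 highest features held 14.7% and the matrix, receptor, ligand and transcription factor classes 9.31%, 1.20%, 1.69% and 1.498%. With classes taken from functional terms, receptors held 0.655%, ligands 0.858% and transcription factors 1.46%, and 7 matrix genes, 5 receptors, 3 ligands and 5 transcription factors of the 10 highest were kept. Leaving out 1 Control library, the median CV ranged from 5.997% to 13.8% over all genes, 6.58% to 18.3% for the matrix, 6.90% to 12.9% for receptors, 6.46% to 21.1% for ligands and 5.55% to 16.3% for transcription factors. The 3 libraries per arm limit all spreads, and the cause of these changes was not tested.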
